A study of Rattus norvegicus with 5 samples.

Results

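CpG island and CpG island shore peaks were the enriched regions of an N6-methyladenine (6mA) antibody that the deposited annotation placed in a CpG island, or within 2 kb of one. Members were all peaks of the 3 lists called against input whose CpG island or shore entry was filled. They numbered 4034 of 375486 peaks, 661 in islands and 3373 in shores. Neurons had 289 island peaks, Astrocytes 190 and NSCs 182. Shore peaks numbered 1314 in Neurons, 1048 in Astrocytes and 1011 in NSCs. A peak annotated with both was counted as an island peak, which concerned 158 Neuron, 105 Astrocyte and 103 NSC peaks.

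Rat genomic DNA was sheared, denatured and precipitated with the 6mA antibody, and the recovered fragments were sequenced. The groups were Neurons, Astrocytes and neural stem cells (NSCs). The NSCs were the SCR022 line, a line of rat hippocampal stem cells. The labels give no treatment, age or genotype, and do not say how Neurons and Astrocytes were obtained. Each cell type had 1 immunoprecipitated library, and inputs were samples for Neurons and NSCs. The astrocyte list was also called against an input, which had no sample of its own. With 1 library per cell type no difference could be tested against a spread between replicates. The intervals below (exact, Clopper-Pearson, at 95%) reflect counting error alone, and no p was computed. The immunoprecipitated libraries held 13930646 uniquely mapped reads in Neurons, 13866225 in Astrocytes and 13785430 in NSCs, nearly equal depths. The inputs that the lists were called against were less alike, with 22212721 uniquely mapped reads for Neurons and 27729210 for NSCs. The files hold no expression values, so the cell type labels could not be checked against markers. Whether an enriched region carries 6mA was not measured by another method here.

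CpG islands are stretches of vertebrate DNA rich in the CG dinucleotide that cover many gene starts, above all those of housekeeping and developmental regulator genes. They are usually free of 5-methylcytosine, while the shores beside them vary more between tissues. 6mA is a methyl mark on adenine, well known in bacteria. Its presence and amount in mammalian DNA are debated. The series title names N6amt1, reported as a 6mA methyltransferase, and Txnrd3, which encodes a thioredoxin reductase, in connection with neurogenesis in the hippocampus.

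The promoters that the results below turn on show what such DNA looks like. The first 4 belong to genes with an island peak at the promoter in Neurons and NSCs. Fanci, Prkd2, Cyp26b1 and Rc3h1 carried peaks in every cell type, with that of Fanci in Astrocytes counted as shore. Fam84a (Lratd1 in RefSeq) had its island peak in Neurons alone and Cdc7 in NSCs alone. Txnrd3 had a shore peak in Neurons alone. Cfap44, shown for contrast, had the largest fold among Neuron promoter peaks outside islands and shores. Each line gives the 250 bases before the start of the gene from the RefSeq promoter table of the GRCr8 assembly, 5′ to 3′ on the gene's strand, with every CG in capitals.
Fanci: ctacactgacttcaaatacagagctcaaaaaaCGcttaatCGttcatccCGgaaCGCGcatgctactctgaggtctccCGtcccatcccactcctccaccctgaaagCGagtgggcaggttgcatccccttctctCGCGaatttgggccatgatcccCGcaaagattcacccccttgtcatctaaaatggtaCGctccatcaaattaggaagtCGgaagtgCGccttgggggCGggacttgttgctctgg
Prkd2: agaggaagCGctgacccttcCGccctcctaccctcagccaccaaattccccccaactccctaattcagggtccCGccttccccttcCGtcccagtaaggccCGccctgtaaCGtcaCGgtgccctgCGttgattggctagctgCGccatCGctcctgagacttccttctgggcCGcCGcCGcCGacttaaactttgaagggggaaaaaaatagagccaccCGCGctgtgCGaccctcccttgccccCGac
Cyp26b1: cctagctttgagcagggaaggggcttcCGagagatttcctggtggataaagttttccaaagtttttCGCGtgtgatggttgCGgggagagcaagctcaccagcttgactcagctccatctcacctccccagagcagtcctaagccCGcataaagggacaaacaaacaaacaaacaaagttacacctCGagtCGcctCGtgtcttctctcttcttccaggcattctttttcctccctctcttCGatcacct
Rc3h1: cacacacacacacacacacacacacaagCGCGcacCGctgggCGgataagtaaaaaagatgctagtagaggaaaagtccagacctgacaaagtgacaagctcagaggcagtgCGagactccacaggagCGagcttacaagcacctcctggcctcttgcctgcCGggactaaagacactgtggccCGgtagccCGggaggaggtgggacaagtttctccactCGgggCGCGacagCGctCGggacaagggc
Fam84a: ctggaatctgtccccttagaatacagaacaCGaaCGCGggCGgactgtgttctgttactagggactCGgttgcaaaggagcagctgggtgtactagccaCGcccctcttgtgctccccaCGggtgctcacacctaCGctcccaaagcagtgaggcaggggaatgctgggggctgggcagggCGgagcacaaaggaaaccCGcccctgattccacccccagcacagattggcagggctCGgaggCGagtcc
Cdc7: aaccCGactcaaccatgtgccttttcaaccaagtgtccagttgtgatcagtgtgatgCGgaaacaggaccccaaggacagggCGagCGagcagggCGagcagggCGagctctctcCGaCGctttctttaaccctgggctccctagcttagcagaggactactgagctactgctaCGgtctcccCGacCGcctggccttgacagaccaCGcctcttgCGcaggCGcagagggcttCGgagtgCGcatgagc
Txnrd3: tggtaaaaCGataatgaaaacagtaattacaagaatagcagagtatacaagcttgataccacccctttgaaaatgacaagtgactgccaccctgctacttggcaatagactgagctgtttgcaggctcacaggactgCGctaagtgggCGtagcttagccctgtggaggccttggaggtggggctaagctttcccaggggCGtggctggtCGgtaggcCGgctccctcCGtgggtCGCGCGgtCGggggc
Cfap44: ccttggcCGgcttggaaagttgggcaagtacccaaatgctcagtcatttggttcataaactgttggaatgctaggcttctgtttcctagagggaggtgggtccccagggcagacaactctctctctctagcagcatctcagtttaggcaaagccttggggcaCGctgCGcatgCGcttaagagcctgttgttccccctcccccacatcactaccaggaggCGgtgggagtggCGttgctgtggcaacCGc
Their GRCr8 positions were chr1:142736403-142736652 and chr1:86641924-86642173 on the plus strand, chr4:118616177-118616426 on the minus strand, chr13:75706848-75707097 on the plus strand, chr6:42650989-42651238 and chr14:2969657-2969906 on the minus strand, chr4:123629518-123629767 on the plus strand and chr11:69789906-69790155 on the minus strand. The peak files use coordinates of a build other than GRCr8 (not given in the sources used here), in which the Txnrd3 promoter peak starts 2.02 Mb from the GRCr8 promoter. Peaks could therefore not be laid onto these letters. The stretch held 18 CG in Prkd2, 16 in Cdc7, 14 in Fanci, 14 in Rc3h1, 12 in Fam84a, 11 in Txnrd3, 9 in Cyp26b1 and 7 in Cfap44. The ratio of observed to expected CG, which corrects for base composition, was 0.810 in Prkd2, 0.801 in Fanci, 0.702 in Cdc7 and 0.648 in Rc3h1. It was 0.590 in Txnrd3, 0.582 in Cyp26b1, 0.506 in Fam84a and 0.352 in Cfap44. In these 250 bases Txnrd3, Cyp26b1 and Fam84a thus fell, like Cfap44, below the ratio of 0.6 used in the next paragraph. On either strand CG reads the same, and 95.2% of all 300-base promoters hold at least 1.

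Promoters of genes with an island peak were CG-rich as a group. A promoter was called CpG-rich when its 300 bases had over 50% GC and an observed to expected ratio above 0.6. Among genes with any island peak, 76.7% of 172 promoters were CpG-rich in Neurons (95% interval 69.7 to 82.8), 68.2% of 110 in Astrocytes and 66.0% of 100 in NSCs. Where the island peak itself was annotated as promoter, the share was 83.8% of 105 in Neurons, 82.3% of 62 in Astrocytes and 80.4% of 56 in NSCs. Shore peaks at promoters gave 77.7% of 282, 74.5% of 212 and 79.2% of 197 in Neurons, Astrocytes and NSCs. By contrast, 33.3% of 1204, 31.1% of 1024 and 30.8% of 1026 promoters with a peak outside islands and shores were CpG-rich in those cell types, against 43.3% of all 19005 protein-coding promoters. The island annotation is itself based on CG content, so the high share describes the rule and is not a separate finding. Turning the question round, a promoter peak of any kind lay at 8.49% of CpG-rich promoters in Neurons (7.89 to 9.11), against 8.17% of other promoters (7.66 to 8.71). In Astrocytes the shares were 6.36% of CpG-rich (5.84 to 6.91) and 7.13% of other promoters (6.65 to 7.64). In NSCs they were 6.22% (5.71 to 6.77) and 7.07% (6.59 to 7.57). The intervals of both kinds of promoter overlapped within each cell type. In narrower steps of the observed to expected ratio they did not all overlap. Promoters with a ratio over 0.8 carried a peak in 5.69% of cases in Astrocytes (5.07 to 6.35), against 7.90% at a ratio of 0.2 to 0.4 (7.03 to 8.85). The same steps gave 6.17% (5.53 to 6.86) and 7.82% (6.95 to 8.76) in NSCs, and 7.97% (7.25 to 8.74) and 9.04% (8.11 to 10.0) in Neurons, where the intervals overlapped. The step of 0.2 to 0.4 had the highest share in each cell type. At a ratio of 0 to 0.2 the shares were 6.54% in Astrocytes (5.79 to 7.34), 6.96% in NSCs (6.19 to 7.79) and 7.38% in Neurons (6.59 to 8.23). These intervals overlapped those of ratios over 0.8, so the shares did not fall steadily as the ratio rose.

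Island peaks lay mostly across the border of an island rather than within it. In Neurons 86.9% of island peaks crossed an island edge (82.4 to 90.5), in Astrocytes 86.3% (80.6 to 90.9) and in NSCs 88.5% (82.9 to 92.7). Those wholly inside an island numbered 38 in Neurons, 26 in Astrocytes and 21 in NSCs. The midpoint of the peak was inside the island for 34.3% in Neurons (28.8 to 40.0), 26.3% in Astrocytes (20.2 to 33.2) and 25.8% in NSCs (19.6 to 32.8). The median island peak had 31.8% of its length in the island in Neurons, 26.8% in Astrocytes and 22.3% in NSCs. As little as 5 bp of overlap in Neurons, 3 bp in Astrocytes and 4 bp in NSCs had been enough for the annotation. The 471 islands met by an island peak had a median width of 525 bp with quartiles at 331 and 928 bp, and the median island peak was 483 bp wide in Neurons, 488 bp in Astrocytes and 490 bp in NSCs. With so small an overlap enough, and peaks about as wide as islands, most peaks that touch an island would cross its edge anyway. The crossing shares thus largely describe the rule and the widths, and they were not tested against random placement.

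**Figure D1:**
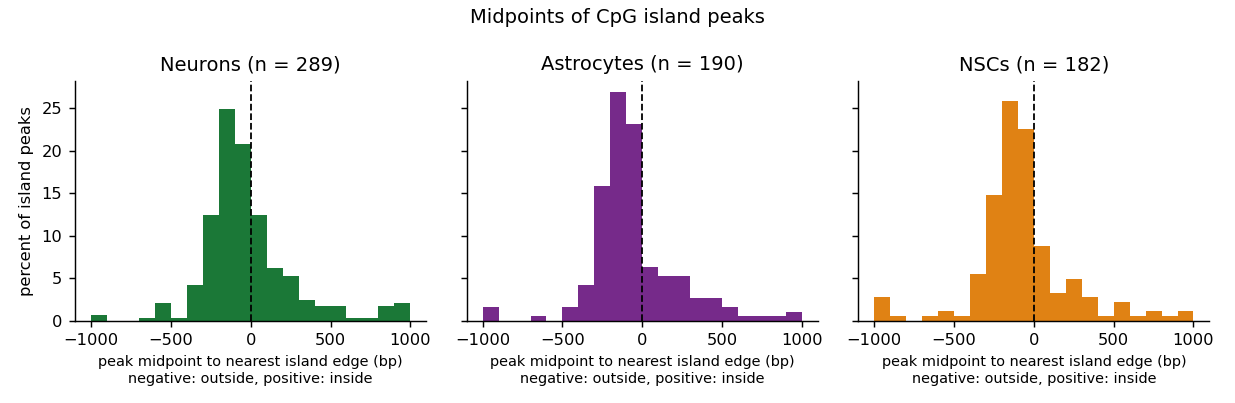
Distance in bp from the midpoint of each CpG island peak to the nearest edge of its island, as percent of the island peaks of Neurons, Astrocytes and NSCs; negative values lie outside the island, the dashed line is the edge, and values beyond 1000 bp are drawn in the outermost bars. The tallest bars stand just outside the edge in every cell type, and 34.3%, 26.3% and 25.8% of midpoints are inside.

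Shore peaks spread over the whole 2 kb. The gap between shore peak and island had a median of 1053 bp in Neurons, 1100 bp in Astrocytes and 1102 bp in NSCs, and reached 1998, 1994 and 1996 bp. Under 1000 bp lay 47.3% of Neuron (44.6 to 50.1), 45.9% of Astrocyte (42.8 to 49.0) and 45.2% of NSC shore peaks (42.1 to 48.3). All of these shores lay on the lower-coordinate side of their island, with 1351 pairs of peak and island on that side in Neurons, 1072 in Astrocytes and 1033 in NSCs, and 0 on the upper side. Shore counts therefore stand for 1 flank of each island.

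Compared with all peaks of the same list, island and shore peaks were small in number and ordinary in strength. Islands held 0.210% of Neuron peaks (0.187 to 0.236), 0.164% of Astrocyte peaks (0.141 to 0.189) and 0.149% of NSC peaks (0.129 to 0.173). Shores held 0.955% (0.904 to 1.01), 0.903% (0.849 to 0.959) and 0.830% (0.780 to 0.882). The interval for Neuron islands did not overlap that for NSC islands, nor did that for Neuron shores that for NSC shores. Among peaks with a fold of at least 20, islands held 0.184% in Neurons, 0.197% in Astrocytes and 0.184% in NSCs. The fold over input, which is the authors' own value for each peak, had a median of 11.0 in Neuron islands (10.8 to 11.6), 12 in Neuron shores and 12.1 in all Neuron peaks. In Astrocytes it was 11.3 in islands (10.2 to 12.7), 11.4 in shores and 12.3 in all peaks. In NSCs it was 11.8 in islands (10.8 to 13), 12 in shores and 12.2 in all peaks. The authors' score is 10 times the −log10 p of a peak, with a minimum of 50 (p of 1e-05). A score of at least 100 was reached by 43.9% of island peaks, 41.0% of shore peaks and 42.9% of all peaks in Neurons, 46.8%, 39.8% and 42.2% in Astrocytes, and 45.6%, 41.3% and 42.1% in NSCs.

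Island peaks lay more often at annotated gene starts and exons than peaks as a whole. CpG islands cover many gene starts, so the choice of members itself favours such places, and its part was not tested. The promoter class held 48.4% of Neuron (42.5 to 54.4), 45.8% of Astrocyte (38.6 to 53.2) and 49.5% of NSC island peaks (42.0 to 56.9). For shore peaks it was 31.5%, 30.2% and 31.0%, against 3.20%, 3.02% and 2.97% of all peaks in Neurons, Astrocytes and NSCs. Exons held 34.9% of Neuron, 36.8% of Astrocyte and 33.5% of NSC island peaks. Only 8.68%, 7.06% and 6.73% of shore peaks touched an exon, against 3.05%, 2.89% and 2.78% of all peaks. Introns held 42.9%, 41.1% and 42.9% of island peaks in Neurons, Astrocytes and NSCs, against 33.9%, 34.2% and 33.4% of all peaks. No gene class was given for 24.6%, 28.4% and 22.5% of island peaks and for 29.4%, 29.3% and 29.7% of shore peaks, where it was 61.4%, 61.2% and 62.2% of all peaks. A peak can have several classes, and 20 Neuron, 14 Astrocyte and 6 NSC island peaks lay in promoters of several genes.

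Neuron island peaks were the least shared. In Neurons 54.0% of island peaks overlapped no peak of Astrocytes or NSCs (48.0 to 59.8), against 41.7% of shore peaks (39.0 to 44.4), 35.7% of promoter peaks outside both (34.2 to 37.2) and 36.1% of all peaks. Astrocyte island peaks were found in neither other cell type for 31.6% (25.0 to 38.7), against 31.9% of shore peaks, 27.0% of other promoter peaks and 29.2% of all peaks. In NSCs the share was 34.1% of island peaks (27.2 to 41.4), 31.5% of shore peaks, 29.3% of other promoter peaks and 32.1% of all peaks. Overlap with both other cell types was found for 29.4% of Neuron (24.2 to 35.0), 48.4% of Astrocyte (41.1 to 55.8) and 51.6% of NSC island peaks (44.1 to 59.1), against 38.6%, 45.8% and 43.6% of all peaks. The Neuron list is the longest, with 137579 peaks against 116091 in Astrocytes and 121816 in NSCs. The Neuron share is thus set against shorter lists. With each list reduced to its top 58045 peaks by score, the Neuron shares were 37.3% of island and 26.6% of shore peaks. With a score of at least 100 in every list they were 41.7% (33.0 to 50.8) and 30.8% (26.9 to 34.9). With a fold of at least 20 in every list they were 25.0% (14.0 to 38.9) and 25.4% (20.3 to 31.0), with few island peaks left and a wide interval. The share of all Neuron peaks was not computed under these settings. These values can therefore not be set against the 36.1% of the full lists.

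**Figure D2:**
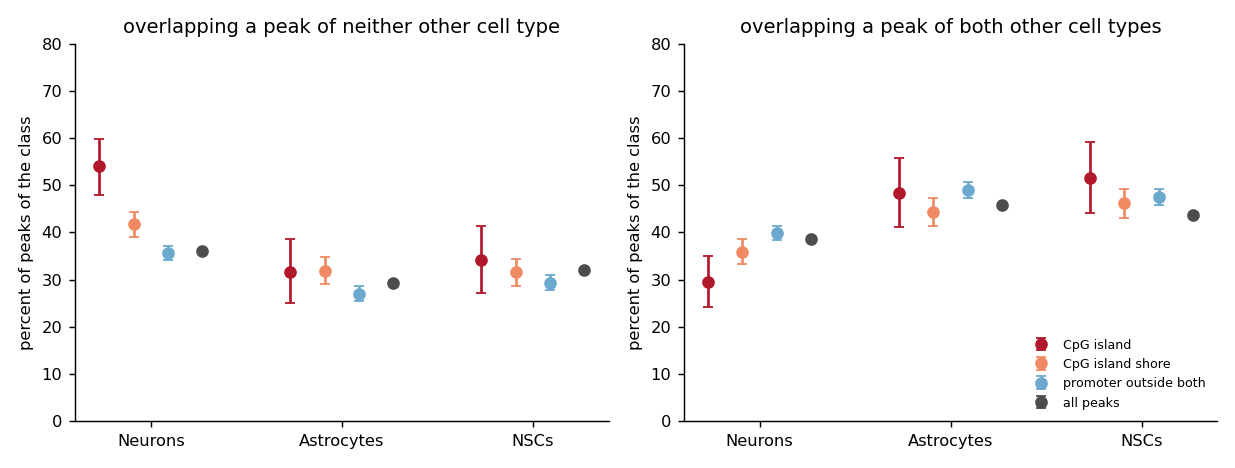
Percent of peaks of each class that overlapped a peak of neither (left) or both (right) of the other cell types, for Neurons, Astrocytes and NSCs; points are shares, bars are exact 95% intervals of counting error, and bars of all peaks are smaller than the points. Neuron island peaks stand at 54.0% on the left and 29.4% on the right, away from all Neuron peaks at 36.1% and 38.6%.

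Sharing moved with the score of the peak. Among Neuron island peaks, 91.7% of 60 with a score from 50 to under 60 were in neither other cell type (81.6 to 97.2), 72.5% of 102 from 60 to under 100 (62.8 to 80.9), 36.6% of 71 from 100 to under 200 (25.5 to 48.9), and 1.79% of 56 at 200 or more (0.0452 to 9.55). For all Neuron peaks the same steps gave 64.8%, 48.8%, 21.5% and 0.866%. At each of the lower 3 steps the Neuron island interval lay above the share of all Neuron peaks. In Astrocytes the island shares were 57.5%, 49.2%, 17.5% and 0, against 57.0%, 39.2%, 13.1% and 0.208% of all peaks. In NSCs they were 68.4%, 45.9%, 22.2% and 0, against 59.9%, 42.6%, 16.1% and 0.854%. Island intervals in Astrocytes and NSCs held the share of all peaks at the lower 3 steps. At a score of 200 or more there were 49 island peaks in Astrocytes and 47 in NSCs, so the 0 allows shares of up to 7.25% and 7.55%.

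**Figure D3:**
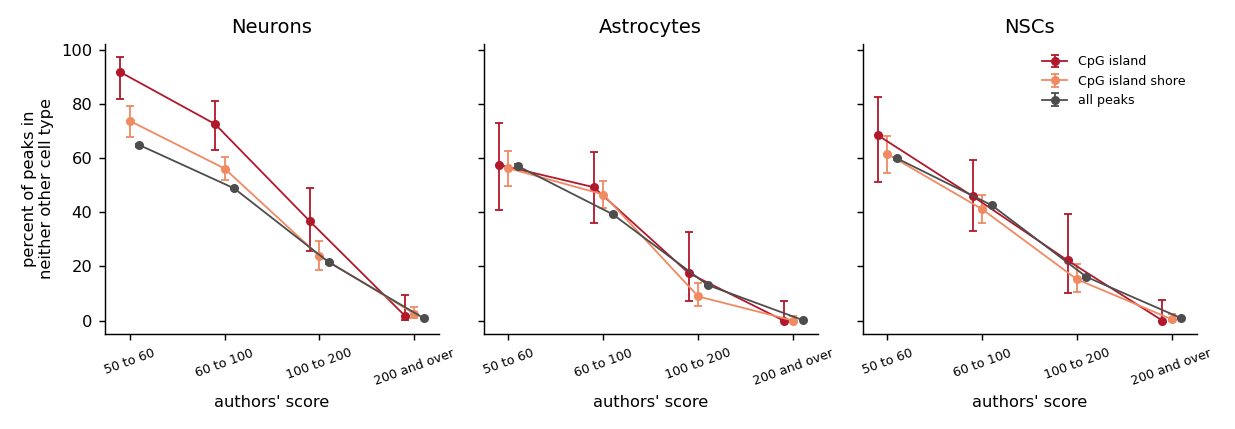
Percent of peaks in neither other cell type by the authors' score, for CpG island peaks, shore peaks and all peaks of Neurons, Astrocytes and NSCs; bars are exact 95% intervals of counting error. Every line falls with score, and the Neuron island line starts at 91.7% where all Neuron peaks start at 64.8%.

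Position within the island moved with sharing too, in every cell type. When the midpoint was inside the island, 70.7% of 99 Neuron peaks (60.7 to 79.4), 62.0% of 50 Astrocyte peaks (47.2 to 75.3) and 66.0% of 47 NSC peaks (50.7 to 79.1) were in neither other cell type. With the midpoint outside, the shares were 45.3% of 190 (38.0 to 52.6), 20.7% of 140 (14.3 to 28.4) and 23.0% of 135 (16.2 to 31.0). The median score was 67.7, 62.6 and 66.9 with the midpoint inside, and 103, 102 and 96.0 with it outside, for Neurons, Astrocytes and NSCs. Score thus moved along with position, and its part in the difference was not tested. The split by midpoint was chosen after the data had been seen.

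Merging overlapping island peaks gave 464 island loci. Of these, 118 had a peak in all 3 cell types, 35 in Neurons and Astrocytes, 23 in Neurons and NSCs, 10 in Astrocytes and NSCs, and 156 in Neurons, 60 in Astrocytes and 62 in NSCs alone. Of the 2097 shore loci, 503 had a peak in all 3 cell types and 548, 334 and 318 in Neurons, Astrocytes and NSCs alone. Loci of all 3 cell types thus made up 25.4% of island and 24.0% of shore loci, and those of Neurons alone 33.6% and 26.1%. Loci were not merged from all peaks, so these shares have no background beside them and show no trait particular to islands or shores. Of the 118 island loci in all cell types, 61 were island peaks in each, 35 were annotated as shore in at least 1 cell type, and 22 had neither entry in at least 1. At the shores, 431 of 503 kept the shore annotation in every cell type.

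Among island loci in all cell types with a named gene, those with the largest smallest fold belonged to genes with varied roles. Folds come from separate lists and are set side by side without a comparison. Fanci, which works with FANCD2 in repair of DNA crosslinks, had folds of 167 in Neurons, 142 in Astrocytes and 138 in NSCs (chromosome 1, 141115103 to 141116539). At Prkd2, a protein kinase D, and its neighbour Strn4, the promoter peak had folds of 119 in Neurons, 124 in Astrocytes and 145 in NSCs (chromosome 1, 78767013 to 78767784). Cyp26b1, which breaks down retinoic acid, had 136, 128 and 108 in the same order (chromosome 4, 116279539 to 116280161). Each of these loci was among the 8 island peaks with the largest fold in at least 2 of the lists.

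Atp5sl had folds of 104 in Neurons, 132 in Astrocytes and 125 in NSCs at its promoter. Yeats2, a reader of acylated histones, had 237, 244 and 100 in an intron, with peak ends at 84504081, 84504074 and 84504072, just past the island start at 84504061. All peaks of Yeats2 stood at a score of 3100, a value shared by 1060 peaks of the 3 lists. Another 6 loci had folds between 37.8 and 77.7. They lay at Zdhhc1, a palmitoyltransferase, Rc3h1 (Roquin), which promotes decay of messenger RNA, Rwdd2b, Mcidas (Multicilin), a regulator of multiciliated cells, Napb, of the SNARE recycling machinery, and Fgf9, a fibroblast growth factor.

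**Figure D4:**
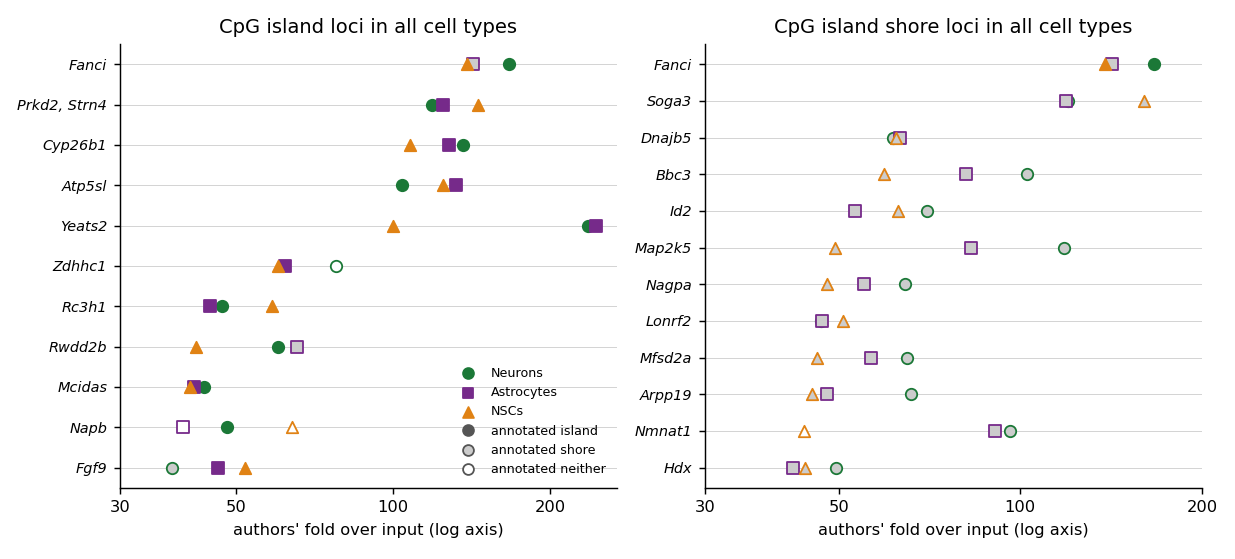
The authors' fold over input (log axis) at 11 CpG island loci (left) and 12 shore loci (right) among those with the largest smallest fold in all cell types, with a marker shape for each of Neurons, Astrocytes and NSCs and a fill for how the peak was annotated. Fanci stands above 138 in every cell type, and its Astrocyte peak is annotated as shore.

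The strongest shore loci followed the same form. Soga3 had an intronic peak with folds of 120 in Neurons, 119 in Astrocytes and 161 in NSCs (chromosome 1, 31118489 to 31119317). Bbc3 (Puma), which promotes apoptosis, had promoter folds of 103, 81.4 and 59.4. Id2, an inhibitor of basic helix-loop-helix factors, had 70.0, 53.3 and 62.7. Map2k5, the kinase MEK5, had 118, 83.0 and 49.4. Dnajb5, a heat shock protein of the DnaJ family, had 61.6, 63.1 and 62.3. The others of this set were Nagpa, Lonrf2, Mfsd2a, a lysophospholipid transporter of brain vessels, Arpp19, a phosphatase inhibitor in mitosis, Nmnat1, which makes NAD, and Hdx, with folds from 42.0 to 96.0.

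The median score of island loci in a single cell type was 65.1 for Neurons, 62.3 for Astrocytes and 60.7 for NSCs. Those named here had the highest scores among loci with a named gene. In Neurons alone they were Dkc1, the dyskerin of telomerase and ribosomal RNA modification (fold 9.74, score 269), Hivep2, a zinc finger factor (21.6, 187), Mmp16, a membrane metalloproteinase (20.5, 167), Plxna4, a semaphorin receptor (21.7, 158), the Mir375 and Cfap65 region (14.0, 150) and Fam84a (16.9, 147). In Astrocytes alone they were Endov (17.3, 149), F2rl1, the protease-activated receptor PAR2 (13.9, 139), Xkr5 (24.2, 138), Lgr4, a receptor of R-spondins (17.9, 118), Irf2, an interferon regulatory factor (16.5, 101), and Tram1l1 (15.7, 84.5). In NSCs alone they were Hpse2 (fold 16.9, score 150), Igsf21 (14.7, 148), Cdc7, a kinase that starts DNA replication (16.3, 138), Mdga2, which restrains synapse formation through neuroligins (15.0, 112), Myc (10.7, 106) and Gad2, which makes GABA (9.15, 105). The island of Hpse2 also had a Neuron island peak at its other edge, with a fold of 10.7 and a score of 60.9, which did not overlap that of NSCs.

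Shore loci in a single cell type had a median score of 67.0 for Neurons, 63.2 for Astrocytes and 62.4 for NSCs. Those with a named gene numbered 353, 210 and 209, against 117, 44 and 44 island loci of this kind. The shore loci named here had the highest scores among them. In Neurons alone they were Gcn1l1 (fold 14.1, score 358), Aaed1 (22.9, 286), Rgs2, a regulator of G protein signalling (19.3, 232), Dner, a Notch-related transmembrane protein of neurons (23.3, 203), Rai14 and Gpr37. In Astrocytes alone Gtf2e2 (16.5, 153), Relb, a subunit of NF-κB (16.0, 133), Slc43a1, Snrpc, Vangl2 and P2ry1 led. In NSCs alone Efcab11 (21.1, 235), the Mrps15 and Csf3r region (17.3, 168), Ak3 (21.2, 166), Smap2, the Prkag1 and Kmt2d region and Mapk10 led. None of these values has a replicate.

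Lists of developmental regulators, the longest of those examined, held the most genes with an island peak. An island peak in any cell type lay at 6 of 98 homeobox and paired-box genes (6.12%) and at 7 of 80 forkhead, Sox, T-box, Gata and basic helix-loop-helix genes (8.75%), against 335 of 23154 protein-coding genes (1.45%). Shorter lists had like shares on few genes, with 8.00% of 25 oligodendrocyte, microglia and vessel markers and 6.06% of 33 housekeeping genes. The homeobox genes were Alx4, Barhl1, Cux1, En2, Hoxa2 and Lhx1. Those of the other list were Eomes, Fezf2, Id3, Neurog2, Olig2, Tal1 and Tcf3. Alx4, Cux1, Olig2 and Tcf3 had one in every cell type. Cux1, a factor of upper cortical layer neurons, had folds of 43.8 in Neurons, 30.8 in Astrocytes and 41.0 in NSCs at its promoter. Alx4, a craniofacial and limb factor, had 29.7, 25.4 and 31.7. Olig2, a master factor of oligodendrocytes and motor neurons, had 27.1, 23.7 and 24.4 in its exon and intron. Tcf3 (E2A), a partner of proneural factors, had 9.84, 15.3 and 9.64 over peaks of more than 1 kb.

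Neurog2, a proneural factor, had an island peak at its promoter in Neurons (fold 12.6) and Astrocytes (10.7). Eomes (Tbr2), a marker of intermediate progenitors, had one in NSCs alone (9.39). Pdgfra, the receptor that marks oligodendrocyte precursors, had an intronic island peak in each cell type, with folds of 15.7 in Neurons, 14.4 in Astrocytes and 22.6 in NSCs. Island density differs between gene groups, since developmental regulators carry more and longer islands, and how many genes of each list have an island was not established here. The counts are therefore no sign of enrichment.

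Shore peaks gave 15 of 98 homeobox genes (15.3%) and 11 of 80 of the second list (13.8%), against 1339 of 23154 protein-coding genes (5.78%). Like shares were found for clustered protocadherins (16.7%), neural stem cell markers (13.6%), housekeeping genes (12.1%) and redox genes (11.1%). Lower were imprinted genes (5.08%), astrocyte markers (4.55%) and neuronal markers (0), and the remaining lists lay between 6.45% and 10.3%. All 509 listed genes together stood at 11.2%, and enrichment was not tested. En1, Lhx5, Lmx1a, Shox2, Foxp1, Id2 and Tbr1 had one in every cell type. Lmx1a, a factor of dopaminergic neuron precursors, had folds of 21.7 in Neurons, 39.5 in Astrocytes and 11.8 in NSCs. Tbr1, a factor of deep cortical layer neurons, had 16.9, 12.7 and 17.6.

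Marker lists of the cell types were short, so that a single gene moved their shares widely. Of all protein-coding genes, 1.45% had an island peak and 5.78% a shore peak in any cell type. Of 22 neuronal markers, Gad2 had an island peak, in NSCs alone (4.55%), and 0 had a shore peak. Among 22 astrocyte markers, 0 had an island peak, and Gfap, the intermediate filament of astrocytes, had shore peaks in every cell type, with largest folds of 9.59 in Neurons, 13.3 in Astrocytes and 8.36 in NSCs. Of 22 neural stem cell markers 0 had an island peak, and Msi1, Msi2 and Notch1 had shore peaks, Msi1 in Neurons and the others in NSCs (13.6%). Pdgfrb, a pericyte receptor, had a strong shore peak in each cell type, with folds of 51.2, 51.1 and 32.5 in Neurons, Astrocytes and NSCs.

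Of 39 genes of DNA methylation and CpG island binding, Kdm2a, which binds unmethylated CpG, had an island peak, in NSCs alone (fold 8.32, score 52.7), which is 2.56% of the list against 1.45% of all protein-coding genes. Dnmt1, Tet1, Tet3 and Uhrf2 had shore peaks, all of them in Neurons, and Tet1 in Astrocytes too, which is 10.3% against 5.78%. Of 23154 protein-coding genes, 836 had a shore peak in Neurons, 663 in Astrocytes and 642 in NSCs, and whether the cell types differ was not tested. Shore peaks of Astrocytes (fold 8.36) and NSCs (8.32) overlapped the Uhrf2 peak of Neurons (12.99) but were assigned to no gene in the files. Among 12 genes linked to adenine methylation, 0 had an island peak and Fto, an RNA demethylase, had a shore peak in every cell type, with folds of 20.9 in Neurons, 40.6 in Astrocytes and 20.0 in NSCs. N6amt1 had neither an island nor a shore peak in any list.

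Of 27 redox genes, 3 had a shore peak in Neurons (Txnrd3, Prdx2, a peroxiredoxin, and Gclc, of glutathione synthesis) and 0 in Astrocytes or NSCs. They were 11.1% of the list, against 5.78% of all protein-coding genes in any cell type. By cell type, a shore peak lay at 836 of 23154 protein-coding genes in Neurons, 663 in Astrocytes and 642 in NSCs. Whether the cell types differ at redox genes was not tested. The Txnrd3 peak lay at its promoter (chromosome 4, 121611399 to 121611828) with a fold of 13.3 and a score of 105. Its island began above the peak, at 121612281, and ended at 121612763. Prdx2 had a fold of 10.5 and a score of 67.0, and Gclc 6.13 and 57.7, both at promoters. Ribosomal protein genes had 0 island peaks in 31 and shore peaks at Rpl6 and Rpl27. Among housekeeping genes, Tfrc, the transferrin receptor, had an island peak in Astrocytes alone (fold 8.82, score 61.0). Imprinted genes had island peaks at Impact, in NSCs alone, and Rasgrf1, in Astrocytes alone, which made 3.39% of 59 genes against 1.45% of all protein-coding genes. Their shore peaks were at Slc22a3, an organic cation transporter, with folds of 24.2 in Neurons, 15.3 in Astrocytes and 34.8 in NSCs, at Dlk1 in Astrocytes (11.2), and at Kcnk9, a potassium channel, in Neurons (19.1). That made 5.08% of the list, against 5.78%. The Kcnk9 peaks of Astrocytes (18.3) and NSCs (6.26) overlapped that of Neurons but carried no shore entry. The clustered protocadherins had 0 island peaks in 48 genes, and the 8 members with a shore entry are nested genes whose counts rest largely on a single Neuron peak of fold 13.3.

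The authors also deposited tables that set 1 immunoprecipitated library against another. These use the same libraries as the peak lists and share them among themselves, so they are no independent check. In the authors' deposited table of Neurons over NSCs, 35.3% of Neuron island peaks lay in a region higher in Neurons (29.8 to 41.1) and 25.7% of Neuron shore peaks (23.4 to 28.2), where the background over all Neuron peaks was 19.7%. In the same authors' deposited table, 17.0% of NSC island peaks and 17.4% of NSC shore peaks lay in a region higher in NSCs, near the background of 16.9%.

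Against NSCs, the authors' deposited table for Astrocytes held 21.6% of Astrocyte island peaks (16.0 to 28.1) and 16.3% of Astrocyte shore peaks in regions higher in Astrocytes, with a background of 15.0%. Regions higher in NSCs in that authors' deposited table held 18.1% of NSC island peaks and 21.6% of shore peaks, with a background of 20.2%. Against Neurons, the authors' deposited table for Astrocytes held 18.9% of Astrocyte island peaks (13.6 to 25.3) and 10.5% of shore peaks, with a background of 11.2%. Regions higher in Neurons in that authors' deposited table held 36.7% of Neuron island peaks (31.1 to 42.5) and 24.4% of shore peaks (22.1 to 26.8), with a background of 22.1%. Island shares of Neurons stood above the background with their whole interval in both comparisons, and so did that of Astrocytes, while those of NSCs did not.

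**Figure D5:**
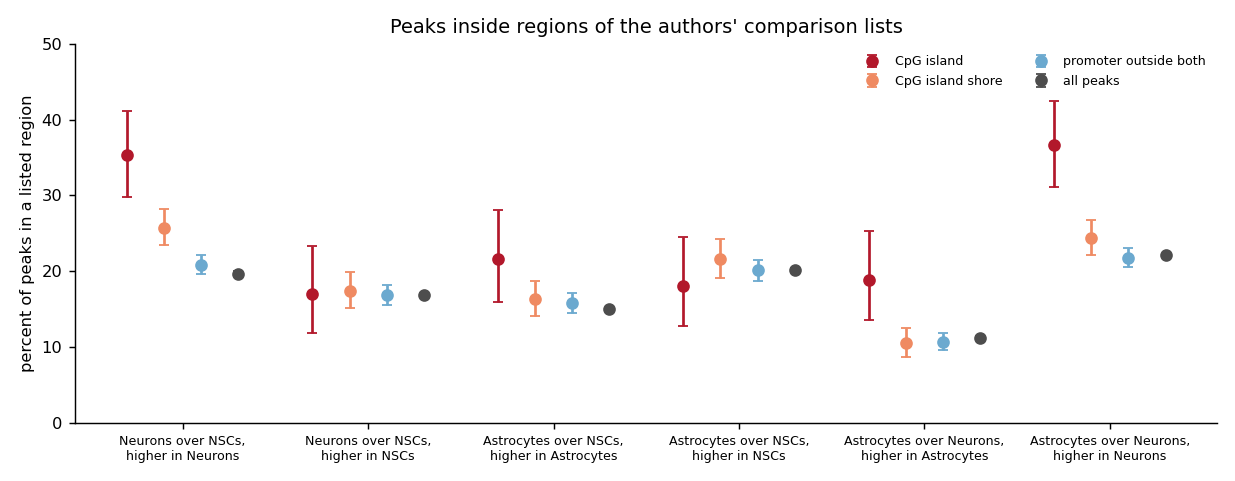
Percent of peaks of the named higher cell type that lay in a region of the authors' comparison lists, by class, with exact 95% intervals of counting error. Neuron island peaks stand at 35.3% against NSCs and 36.7% against Astrocytes, with all Neuron peaks at 19.7% and 22.1%, and NSC island peaks lie near the share of all NSC peaks.

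Peaks in neither other cell type were listed more often. They have no overlapping peak in the compared library, so their choice favours such a listing, which is no separate finding. In the authors' deposited table of Neurons over NSCs, 47.4% of 156 unshared Neuron island peaks were in a region higher in Neurons (39.4 to 55.6), against 33.2% of all unshared Neuron peaks. In the authors' deposited table of Astrocytes over NSCs, 51.7% of 60 unshared Astrocyte island peaks were listed higher in Astrocytes (38.4 to 64.8), against 29.9% of all unshared Astrocyte peaks. In that of Astrocytes over Neurons, the authors' deposited table held 50.0% of those 60 peaks (36.8 to 63.2), against 27.5%, and 54.5% of the 156 Neuron peaks (46.3 to 62.5), against 39.9%. Unshared NSC island peaks were listed higher in NSCs at 45.2% of 62 (32.5 to 58.3) beside 37.9% in the authors' deposited table with Neurons. They stood at 40.3% (28.1 to 53.6) beside 39.8% in the authors' deposited table with Astrocytes.

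Many listed island regions were no peak against input. In the authors' deposited table of Neurons over NSCs, 43.3% of 180 island regions higher in Neurons (36.0 to 50.9) and 69.5% of 105 higher in NSCs (59.8 to 78.1) overlapped no peak of that library, against 15.7% and 25.7% of all listed regions. For Astrocytes over NSCs, the authors' deposited table had 60.6% of 104 higher in Astrocytes and 71.7% of 106 higher in NSCs, against 19.8% and 23.4%. In the authors' deposited table of Astrocytes over Neurons it was 57.1% of 84 higher in Astrocytes and 50.5% of 206 higher in Neurons, against 21.9% and 23.4%. The directions also differed in their coordinates. In the authors' deposited tables, 78.1% to 84.3% of regions higher in the first-named library had exactly the coordinates of one of its peaks. For the second-named library it was 31.9% to 37.1% in the authors' deposited tables. NSCs were second-named in every comparison that included them, and whether this bears on their shares was not tested.

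The largest island folds in the authors' deposited table of Neurons over NSCs were at Mmp16 (21.0), Fosl2, a subunit of AP-1 (18.5), Fam84a (17.3), Eepd1 (16.8) and Ptpru, a receptor phosphatase (16.3), all higher in Neurons. Higher in NSCs, the authors' deposited table had Mdga2 (14.8), Rbm43 (14.8), Phf12 (13.9), Dmrt1 (13.6) and C1ql2 (13.6). Lgr4 (19.9), Irf2 (15.3) and Ankrd13c (14.0) led the island regions higher in Astrocytes in the authors' deposited table of Astrocytes over NSCs, and F8, the clotting factor VIII (21.3), and Casp16 (16.6) those higher in NSCs. In the authors' deposited table of Astrocytes over Neurons, the pair Cep95 and Ddx5 (14.3) led the island regions higher in Astrocytes, and Eepd1 (20.7) and Rps15a (18.9) led those higher in Neurons. Mmp16, Fam84a, Mdga2, Lgr4 and Irf2 were also among the loci of a single cell type named above.

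Among shore regions, Dner led those higher in Neurons, with a fold of 27.1 in the authors' deposited table against NSCs and 28.6 in the authors' deposited table against Astrocytes. Ak3 led those higher in NSCs against Neurons in the authors' deposited table (23.3), and Efcab11 (19.01) and Ak3 (18.8) those higher in NSCs against Astrocytes in the authors' deposited table. Mzf1, a zinc finger factor (21.3), and Ccdc69 (20.2) led the shores higher in Astrocytes against NSCs in the authors' deposited table. The Txnrd3 shore was listed higher in Neurons over NSCs with a fold of 12.5 and a score of 92.5 in the authors' deposited table. It was also listed higher in Astrocytes over NSCs in the authors' deposited table (121611357 to 121611720, fold 11.96, score 51.8), although Astrocytes had no shore peak of Txnrd3 against input.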

How the data were processed

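Per the labels' protocols, sonicated genomic DNA was adapter-ligated, denatured and enriched with the 6mA antibody. Alignment used BWA, per the submitters' processing notes, which give no version. Build, peak caller and annotation source: not given in the sources used here. For each library the authors deposited read counts, with the mapped share in percent. Their peak lists give a fold over input as a ratio, and a score of 10 times the −log10 p, per the file headers.

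Peaks were taken as deposited, with 6 blank lines skipped. Peaks overlapping by at least 1 bp were called shared, and overlapping peaks of a class were merged into loci. Shares carry exact Clopper-Pearson intervals and medians carry order-statistic intervals, both at 95% and both checked on simulated data. No test was run, since each cell type had 1 library. Members and gene lists were chosen with earlier results of these data known. Named genes are, per class, the 8 named peaks with the largest fold per cell type, 12 loci in all cell types by their smallest fold, 6 loci in a single cell type by score, list members with an island peak or with shore peaks in every cell type, the 5 regions with the largest fold per comparison list, and Txnrd3 and N6amt1; other list members were named after their values were seen, and a few items are not reported here. Promoter sequences were matched by symbol to the RefSeq table of GRCr8. Alternatives were a score of at least 100, a fold of at least 20, peaks with both entries in both classes, an overlap of 50% of the shorter peak, equal list sizes and, chosen after seeing the data, midpoint, flank and 1-sided score settings. Python 3.11.15, pandas 2.3.3, numpy 2.4.6, SciPy 1.17.1 and matplotlib 3.10.9 were used. The astrocyte input of the mapping summary was not used here.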

Additional observations from a re-analysis of the deposited data

Results flagged for a closer look

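Peaks on the upper-coordinate side of an island carried almost no shore entry. Within 2 kb above the upper edge of an island listed in the files, 218 Neuron, 159 Astrocyte and 171 NSC peaks had an empty shore entry and were outside every comparison above. At islands that also had an island peak, the lower flank held 62 Neuron, 52 Astrocyte and 48 NSC peaks, all with a shore entry. The upper flank of the same islands held 50, 39 and 43 peaks. Of these, 4, 1 and 4 had a shore entry, which belonged to another island on whose lower side they lay. The islands known here are only those named beside a peak, so islands whose peaks all lie on the upper flank are missing from these counts.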

How the results depend on the processing

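Of 187 values recomputed under an alternative, 106 stayed within the 95% interval of the value reported (for counts, within 1.5 times) and 81 moved. Settings limited to numbered chromosomes, X and Y could move no value. Neither could the midpoint setting for shores or the flank setting for islands. Counting peaks with both entries in both classes could move no island value either. All values so fixed are among the 106, so the tally overstates how stable the results were. With a score of at least 100 in every list, the share of peaks in neither other cell type was 41.7%, 16.9% and 18.1% for islands of Neurons, Astrocytes and NSCs, and 30.8%, 14.1% and 19.6% for shores; with a fold of at least 20 it was 25.0%, 17.0% and 7.14% for islands, and 25.4%, 9.86% and 17.7% for shores, so Neuron islands and shores were then nearly equal. When each list was reduced to its top 58045 peaks by score, the share was 37.3%, 18.2% and 17.4% for islands, and 26.6%, 20.6% and 22.7% for shores. With the score minimum in the counted list only it was 21.3%, 7.87% and 9.64% for islands, and 12.8%, 4.08% and 7.42% for shores. With island peaks defined by midpoint it was 70.7%, 62.0% and 66.0%, and island peaks were 0.0720%, 0.0431% and 0.0386% of peaks. Loci in all cell types and in Neurons alone numbered 75 and 53 for islands and 299 and 166 for shores at a score of at least 100, and 36 and 13, and 147 and 68, at a fold of at least 20. Listed genes with an island and with a shore peak numbered 7 and 14 at that score, and 4 and 6 at that fold. Median folds of islands were 17.3, 21.1 and 20.1 and of shores 19.9, 20.3 and 19.2 at that score, and 33.5, 35.5 and 34.7 and 30.4, 31.8 and 28.8 at that fold, by construction of both minima. At that fold island shares of peaks were 0.184%, 0.197% and 0.184%, so Neurons no longer stood first, and promoter shares were 26.8% in Astrocyte shores, 40.5% in NSC islands and 26.8% in NSC shores. Shore shares were 1.07%, 0.993% and 0.914% with peaks of both entries counted in both classes, and 1.11%, 1.04% and 0.970% with both flanks. Comparison regions with a score of at least 100 held few peaks: over NSCs, 6.23% of Neuron islands, 4.49% of Neuron shores, 0.526% of Astrocyte islands and 1.62% of Astrocyte shores; Astrocytes over Neurons, 0.526% and 0.573% of Astrocyte and 5.54% and 3.04% of Neuron islands and shores; higher in NSCs, 1.10% and 1.68% against Neurons and 2.75% and 2.87% against Astrocytes. CpG-rich promoters made up 83.8%, 82.3% and 80.4% when the island peak lay in the promoter. The cause of the other moves was not tested. Every peak already lay on a numbered chromosome, X or Y. No paired analysis was possible because each cell type had 1 library and no test was run. The order of cell types rests on single libraries, of about equal depth for the immunoprecipitated ones and unequal depth for the inputs.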
